A study of Mus musculus with 18 samples.

Results

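The genotype effect of a mutated Dnmt1 was followed in mouse blood progenitors over 3 sorted populations at once, to ask which transcripts differ between mutant and control when the populations are pooled. The members are the libraries of sequencing batch C whose count columns carry 4 ID numbers, here called control P, control Q, mutant R and mutant S. Each ID number gives 1 library of HSC, 1 of MPP1 and 1 of MPP4, so the design holds 6 control and 6 mutant libraries, 12 of the 18 libraries and 4 of the 8 ID numbers of the study. In HSC, MPP1 and MPP4, control P is control replicate 2, 1 and 3, control Q is control replicate 3, 2 and 4, mutant R is mutant replicate 3, 1 and 3, and mutant S is mutant replicate 2, 2 and 4. Controls are labelled wt and mutants dnmt1-/-, although the design text describes a specific, structure-guided Dnmt1 mutation in the mouse that lowers genomic methylation, after hypomorphic missense alleles in fish. All groups are BALB/c, lineage-negative bone marrow progenitors, sorted directly into lysis and reaction buffer and made into libraries by CEL-Seq2, which reads the 3' ends of transcripts and tags each captured molecule. The labels give no age, cell number or number of animals per library, and do not say that an ID number is an animal. Libraries of 1 ID number were not treated as independent: their counts were summed and the test compared 2 ID numbers with 2, so p-values measure only the spread between these 4 sums, which may be technical.

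Dnmt1 is the maintenance methyltransferase, which copies CpG methylation onto the new DNA strand after replication, with Uhrf1 as its guide to hemimethylated sites. In somatic cells such methylation keeps a set of meiotic and germline genes silent, and the Xlr genes, clustered multicopy genes of the X chromosome related to a synaptonemal complex protein, are among those known to respond to its loss. HSC are the stem cells of blood, MPP1 is an early multipotent progenitor close to them, and MPP4 is the multipotent progenitor with lymphoid priming, marked by Flt3. Fos, Jun and their relatives form AP-1, a transcription factor whose genes belong to the immediate-early group, induced within minutes of a stimulus or of cell handling.

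Libraries held between 354642 and 1202624 counts (median 556052.5), and ID numbers between 1263081 and 3388752. The defining markers set MPP4 apart, with Flt3 at a mean of 529 CPM (counts scaled to a common TMM-adjusted library total) in MPP4 against 21.3 in HSC and 39.4 in MPP1, Dntt at 746 CPM against 0.641 and 0.19, and Slamf1 at 3.47 CPM in MPP4 against 87.4 and 81.2. HSC and MPP1 were close in the stem cell genes Mecom (476 and 438 CPM) and Procr (79.0 and 65.9 CPM). The myeloid gene Mpo differed more, at 47.2 and 670 CPM. Some libraries stood apart. HSC control Q held Mpo at 179 CPM, against 0.88 to 5.58 CPM in the other HSC libraries. The summed erythroid list reached 33746 CPM in MPP1 control Q and 46406 CPM in MPP4 control Q against 797 to 1989 CPM in the other 10 libraries, and the neutrophil list 8958 and 5875 CPM in the same libraries against 87.9 to 837 CPM. B cell genes summed to 13163 CPM in MPP4 mutant R and 3973 CPM in MPP4 control Q, against at most 667 CPM elsewhere. Xist was high in control Q and mutant S and low in control P and mutant R, so each genotype held 1 ID number of each state. The Y-linked genes Ddx3y, Eif2s3y, Kdm5d and Uty went the other way. Ddx3y stood at 157 to 248 CPM in control P and mutant R and at 0 to 8.27 CPM in control Q and mutant S. Each genotype thus held 1 ID number with the female and 1 with the male pattern of these genes. The column names also hold number fields that the labels do not explain, and these differ between genotypes within every population; any technical step they stand for and the genotype cannot be told apart. In bulk libraries, fewer cells of a type and less RNA per cell cannot be told apart either.

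Promoters are shown for 5 genes that carry the main groups of results: Slc25a31 and 4930447C04Rik for meiotic genes, Xlr3a for the Xlr family, Fos for AP-1 and Hspa1a for the Hsp70 genes. Each run is 300 bases, from 250 bases before to 50 after the RefSeq start site (GRCm38.p6, strand of the gene, 5′ to 3′), in the reference strain and not in BALB/c, with every CpG, the dinucleotide that Dnmt1 methylates, in capitals.
Slc25a31, chr3:40708621-40708920, plus strand: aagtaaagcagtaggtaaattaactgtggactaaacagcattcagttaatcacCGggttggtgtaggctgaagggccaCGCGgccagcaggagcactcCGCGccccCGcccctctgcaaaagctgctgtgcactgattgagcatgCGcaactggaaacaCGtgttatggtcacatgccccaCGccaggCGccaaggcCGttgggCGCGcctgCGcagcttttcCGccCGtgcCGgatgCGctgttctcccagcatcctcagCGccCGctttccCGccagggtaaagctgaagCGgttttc
4930447C04Rik, chr12:72917716-72918015, minus strand: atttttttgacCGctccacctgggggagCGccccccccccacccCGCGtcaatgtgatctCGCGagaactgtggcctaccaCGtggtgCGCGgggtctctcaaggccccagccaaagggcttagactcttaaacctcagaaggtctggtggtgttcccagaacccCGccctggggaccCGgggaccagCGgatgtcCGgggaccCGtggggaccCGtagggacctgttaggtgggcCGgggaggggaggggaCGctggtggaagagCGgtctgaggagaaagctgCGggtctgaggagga
Xlr3a, chrX:73097046-73097345, minus strand: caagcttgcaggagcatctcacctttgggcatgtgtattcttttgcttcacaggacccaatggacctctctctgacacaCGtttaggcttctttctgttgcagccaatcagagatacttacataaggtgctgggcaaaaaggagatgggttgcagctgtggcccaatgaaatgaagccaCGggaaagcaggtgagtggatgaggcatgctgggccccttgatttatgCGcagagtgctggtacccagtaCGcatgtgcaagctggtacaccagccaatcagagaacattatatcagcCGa
Fos, chr12:85473640-85473939, plus strand: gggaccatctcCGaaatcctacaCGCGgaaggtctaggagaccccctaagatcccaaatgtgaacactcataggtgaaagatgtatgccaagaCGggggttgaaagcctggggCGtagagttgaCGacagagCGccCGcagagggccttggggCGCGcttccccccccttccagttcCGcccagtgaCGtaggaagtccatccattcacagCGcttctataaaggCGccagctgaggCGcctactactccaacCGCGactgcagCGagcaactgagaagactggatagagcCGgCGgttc
Hspa1a, chr17:34972107-34972406, minus strand: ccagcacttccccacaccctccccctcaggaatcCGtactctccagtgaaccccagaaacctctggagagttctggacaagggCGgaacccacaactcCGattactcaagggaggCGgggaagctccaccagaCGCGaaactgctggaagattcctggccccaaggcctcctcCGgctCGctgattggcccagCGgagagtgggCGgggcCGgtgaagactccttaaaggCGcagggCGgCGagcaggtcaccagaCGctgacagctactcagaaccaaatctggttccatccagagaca
The Slc25a31 window held 22 CpG, 4930447C04Rik 19, Fos 20, Hspa1a 15 and Xlr3a 5. The median over 32851 mouse promoters in the same table was 7, with quartiles of 3 and 20, and the median over the genes tested was 21. Of the 22 genes past the threshold, 18 had a promoter in that table. Motifs were searched on both strands, and none of the searched words contains another. Both meiotic genes hold the E-box CACGTG (in 7.15% of all promoters), Slc25a31 also the E2F word GCGGGA (20%), Fos the TATA word TATAAA (13.6%), and Hspa1a the heat-shock word GAANNTTC (7.86%). Xlr3a held none of these, nor the AP-1 word TGANTCA (7.81%) or the cAMP response word TGACGTCA (1.79%). The Hspa1b promoter differs from that of Hspa1a at 4 of 300 bases and holds 16 CpG. Neither methylation nor factor binding was measured in these libraries.

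Dnmt1 transcript was present in every library (chromosome 9, 20907209 to 20959888, GRCm38). In HSC it stood at 221 and 284 CPM in controls P and Q and at 302 and 316 CPM in mutants R and S; values are given in this order of ID numbers throughout. MPP1 held 304 and 296 CPM in controls and 229 and 297 CPM in mutants, and MPP4 held 356 and 406 against 326 and 322 CPM. Control and mutant libraries overlapped. Averaged over the populations, the level was 311 ± 24.8 CPM in controls and 298 ± 18.5 CPM in mutants (SD, n = 2 ID numbers), a log2 difference of -0.05 with an SE of 0.19. A missense allele need not change the level of its own transcript, so this value does not check the labels. Uhrf1 stood at 104 ± 2.53 CPM in controls and 96.2 ± 2 CPM in mutants (SD, n = 2), with a log2 difference of -0.12 that did not pass edgeR's quasi-likelihood test. None of the 23 tested members of the DNA methylation machinery passed (median log2 difference -0.06), among them the de novo enzymes Dnmt3a at -0.26 and Dnmt3b at 0.14, the demethylating oxygenase Tet2 at -0.13 and the chromatin remodeller Hells at -0.06.

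Over the 4 ID numbers, 22 of 11265 genes tested passed an adjusted p of 0.05 in edgeR's quasi-likelihood test, 0.195% of them. Of these, 20 rose in mutants (0.178%) and 2 fell (0.0178%), while the median log2 difference over all genes was -0.0044. At an unadjusted p under 0.05, 2.2% of all genes were higher and 1.5% lower in mutants. All 6 mutant libraries lay above all 6 control libraries in 13 of the 20 genes that rose, against 38 of all genes tested (0.337%), and below them in 1 of the 2 that fell, Paqr5, against 22 of all genes (0.195%). Among the 22, 10 passed the filter on low counts through the mutant sums only and 1, Paqr5, through the control sums only, so for these 11 a difference is in part built into the filter. The same sign in all 3 populations was found in 3365 of all genes tested (29.9%).

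**Figure D1:**
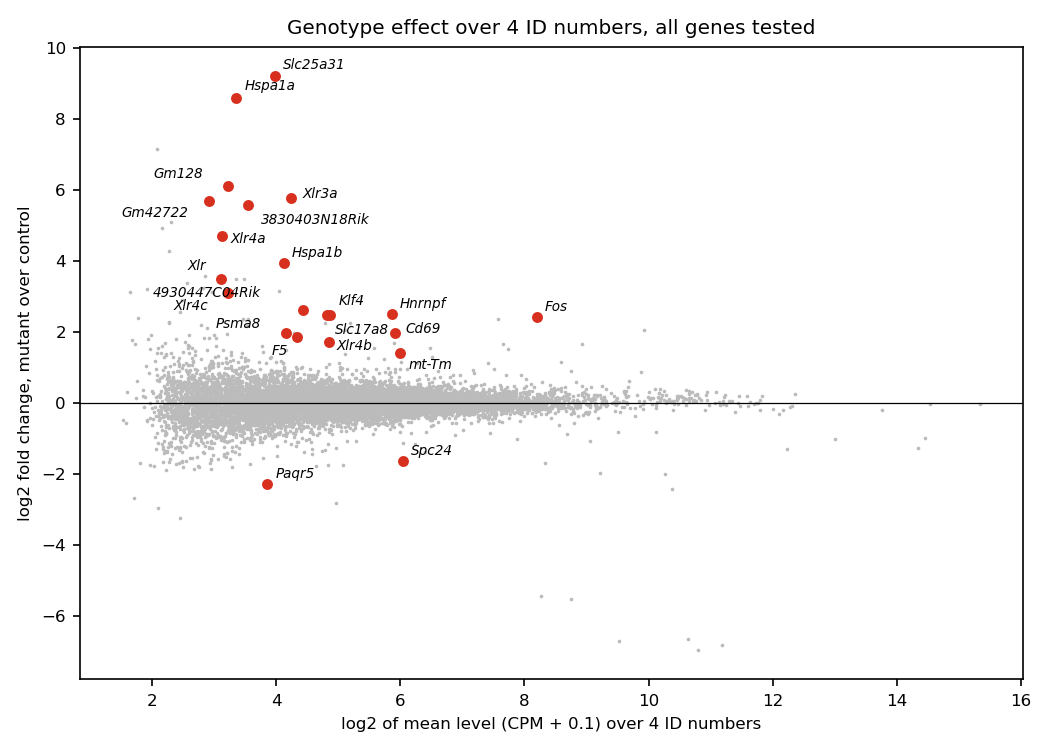
Log2 fold change of mutant over control from the sums of 4 ID numbers (y axis) against log2 of the mean level in CPM + 0.1 (x axis) for the 11265 genes tested, with the 22 genes past an adjusted p of 0.05 in red and named. The red genes above 0 number 20, most of them at low levels, and Fos is the one furthest to the right; Paqr5 and Spc24 are the red points below 0.

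**Figure D2:**
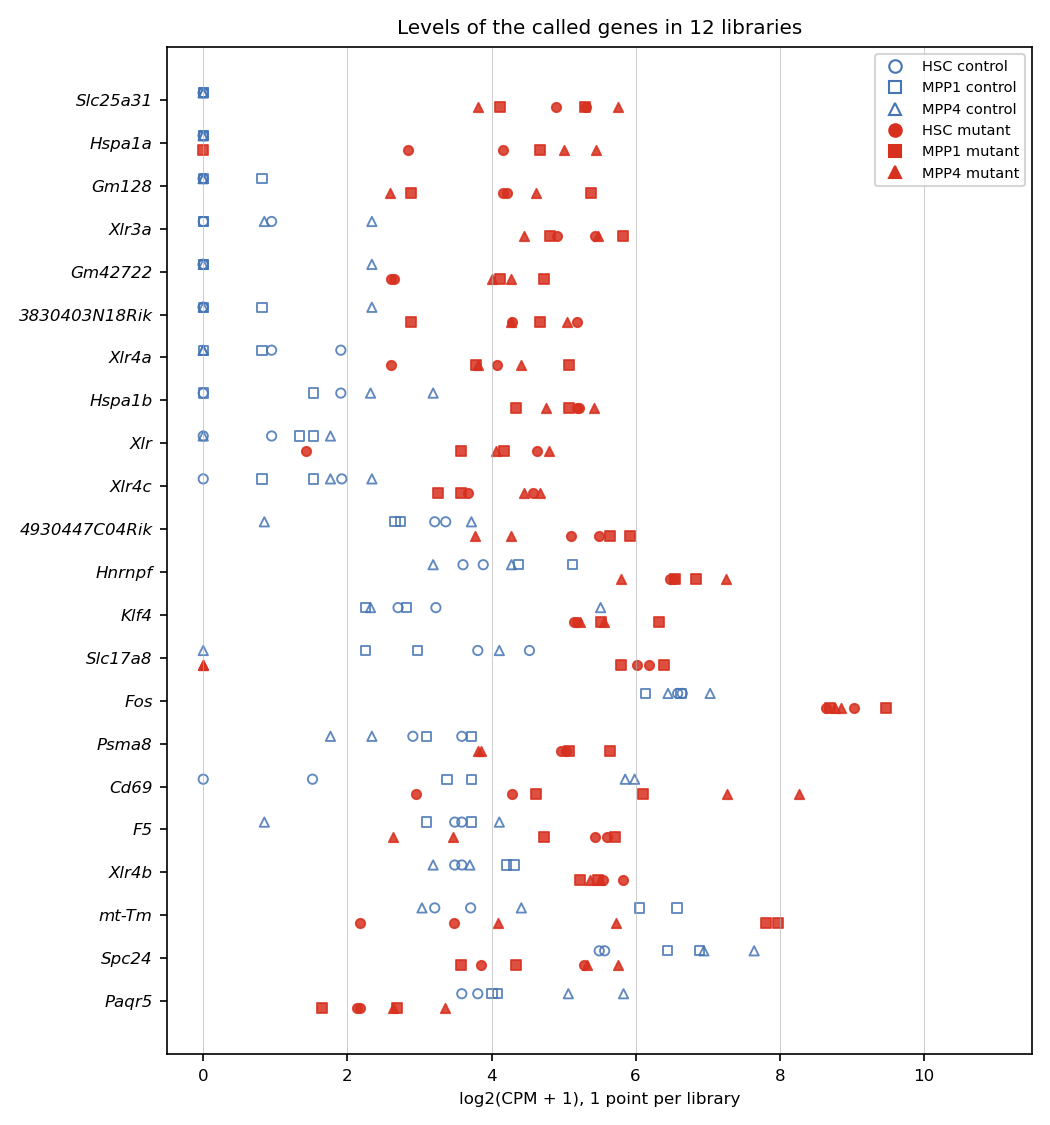
Level of each of the 22 genes in each of the 12 libraries, as log2(CPM + 1) on the x axis, with open blue symbols for controls and filled red symbols for mutants (circles HSC, squares MPP1, triangles MPP4). Slc25a31 and Hspa1a have no count in any control library, the MPP4 mutants are at 0 for Slc17a8, and 1 MPP1 mutant is at 0 for Hspa1a.

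Genes of meiosis and the germline were among those that rose most. Slc25a31 (chromosome 3, 40708855 to 40726096), also known as Ant4, the ADP/ATP carrier of the testis, had no count in any of the 6 control libraries. It had 17 and 44 counts in the HSC mutants, 6 and 18 in the MPP1 mutants and 5 and 63 in the MPP4 mutants, 28.7 and 38.7, 16.3 and 38.4, and 13 and 53 CPM. The groups did not overlap in any population. Against a floor of 3 counts over the control group, the 153 mutant counts made Slc25a31 at least 58.9-fold higher (edgeR adjusted p = 0.0007). Without mutant S, which gave most of these counts, the edgeR adjusted p was 0.191.

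4930447C04Rik (chromosome 12, 72881109 to 72940774), also called Six6os1, encodes a protein of the synaptonemal complex and overlaps Six6 on the other strand; strand use in the counting is not stated, so their reads cannot be told apart. It stood at 9.30 and 8.27 CPM in HSC controls against 43.8 and 33.4 CPM in HSC mutants, at 5.32 and 5.66 against 59.8 and 49.1 CPM in MPP1, and at 0.80 and 12.2 against 18.2 and 12.6 CPM in MPP4. Mutants lay above controls in every population, narrowly so in MPP4. The mean rose from 6.92 ± 2.52 to 36.2 ± 6.31 CPM (SD, n = 2), a log2 fold change of 2.61 with an SE of 0.38 (edgeR adjusted p = 0.00463). The edgeR adjusted p was 0.0533 without control P, 0.0536 without control Q and 0.107 without the MPP1 libraries. Psma8, the proteasome subunit of male germ cells, rose from 7.28 ± 0.368 to 28.4 ± 4.29 CPM (log2 1.98, SE 0.36, edgeR adjusted p = 0.0344) and was higher in all 6 mutants. Its call was lost in 9 of 19 alternatives, among them without control P, control Q or mutant S.

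The list of germline genes kept silent by methylation holds 47 genes of the tables, of which 38 had a count and only 9 passed the filter, 4 of them through the mutants only. Slc25a31 was its 1 member past the threshold and the other 8 were not, with log2 differences from 0.29 to 7.15. Tex19.1, a pluripotency and germ cell gene, had no count in controls and 32 counts in mutants, from 3 to 9 in each of the 6 libraries (edgeR adjusted p = 0.0738). Stag3, the meiotic cohesin subunit, stood at 1.86 and 2.76 CPM in HSC controls and 8.43 and 23.7 in HSC mutants, at 3.80 and 9.43 against 27.2 and 32.0 CPM in MPP1, and at 12 and 24.4 against 36.5 and 50.5 CPM in MPP4 (log2 1.98, SE 0.40, edgeR adjusted p = 0.0751). Within each population both mutants lay above both controls. Of the 38 members with a count, 19 were higher and 19 lower in mutants by their group means. Of all genes tested, 5588 were higher and 5677 lower. The even split of the list rested on MPP4 control Q, whose germline sum was 410.3 CPM against 70.7 to 138 CPM in the other 5 control libraries and 152 to 365 CPM in mutants. With that library left out, chosen after seeing the data, 33 members had a count, 29 of them higher and 4 lower in mutants. MPP4 control Q also detected the most genes, 18226 against 12601 to 16554 in the other libraries. The split over all genes without it was not taken, so whether 29 against 4 is particular to this list was not tested. Among members lower in mutants, Sycp1, a synaptonemal complex gene, had 12 of its 17 control counts in MPP4 control Q, and Tex11, a meiotic gene of the X chromosome, 6 of 9. Summed over the list, with all libraries kept, control P held 104 CPM, control Q held 199.6 CPM and the mutants 211 and 279 CPM, with an exact two-sided permutation p of 0.333, the smallest that 2 against 2 allows.

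The Xlr genes rose together. The family has 8 members in the tables, all with a count, and 7 of them were higher in mutants; 5 were tested, 4 of these through the mutants only, and all 5 passed the threshold. Summed over the 8 members there were 90 counts in controls and 586 in mutants, or 18.5 and 18.9 CPM in controls P and Q against 122 and 149.9 CPM in mutants R and S. By library the sum ran from 13.8 to 22.6 CPM in controls and from 117 to 166 CPM in mutants, with no overlap; over ID numbers the exact two-sided permutation p was 0.333, the smallest possible.

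Xlr3a (chromosome X, 73086293 to 73097095) had 1 and 0 counts in HSC controls, 0 and 0 in MPP1 controls and 1 and 1 in MPP4 controls. The mutants had 25 and 33 counts in HSC, 10 and 26 in MPP1 and 8 and 52 in MPP4, at 42.1 and 29.0, 27.2 and 55.5, and 20.8 and 43.7 CPM. Each mutant library was well above every control library. With 3 control and 154 mutant counts the scaled ratio was 59.3, with a 95% counting interval from 19.9 to 291 (edgeR adjusted p = 6.04e-05). Xlr4a had 3 control and 68 mutant counts, a ratio of 26.2 with an interval from 8.59 to 130.1 (edgeR adjusted p = 0.00463). Xlr4b was the member with the highest control level and rose from 13 ± 0.399 to 44.3 ± 4.96 CPM (log2 1.72, SE 0.29, edgeR adjusted p = 0.0187). Xlr4c had 9 control and 78 mutant counts (log2 3.09, edgeR adjusted p = 0.0263) and Xlr 7 and 78 (log2 3.50, edgeR adjusted p = 0.0418). Except for Xlr, with 1 count in HSC mutant R, all 6 mutant libraries lay above all 6 controls for each of these genes.

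These members share sequence where CEL-Seq2 reads fall. In the last 500 bases of the reference transcripts, 79.4% of 30-base words of Xlr3a also occur in Xlr3b and 61.1% in Xlr3c, and 55.4% of those of Xlr4a occur in Xlr4b and 56.1% in Xlr4c. The split of counts among Xlr3 or among Xlr4 genes is therefore uncertain, while the family sum does not depend on it; Xlr4b and Xlr4c also overlap Xlr5a. The Xlr3a call held in all 19 alternatives, with edgeR, limma or DESeq2 adjusted p of at most 0.0143. The calls of Xlr4a, Xlr4b, Xlr4c and Xlr were each lost without control P and without control Q, and those of Xlr4a, Xlr4c and Xlr also without mutant S, with adjusted p up to 0.998. A further X-linked gene, 3830403N18Rik (56136572 to 56153498), which RefSeq also names Xlrl, had 0, 0, 1, 0, 0 and 1 counts in the controls of HSC, MPP1 and MPP4 and 21 and 21, 9 and 3, and 7 and 38 counts in the mutants. Its ratio was 57.2, with a 95% counting interval from 15.4 to 479 (edgeR adjusted p = 0.0007), and the call held in all 18 alternatives that tested it. Of the 30-base words in its last 500 bases, 29.1% also occur in Xlr, while 0% of those of Xlr occur in 3830403N18Rik. The split of counts between these genes is therefore uncertain in part, and 3830403N18Rik is not in the family sum.

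AP-1 was led by Fos (chromosome 12, 85473890 to 85477273), the partner of Jun proteins and the member past the threshold with by far the highest counts of those that rose. In HSC it stood at 94.9 and 99.2 CPM in controls against 521 and 399 CPM in mutants. In MPP1 the values were 69.2 and 98.1 against 713 and 412 CPM, and in MPP4 86.4 and 130.0 against 461 and 434 CPM. No control library reached the lowest mutant library. The mean rose from 96.3 ± 18.1 to 490.0 ± 106 CPM (SD, n = 2), a 5.36-fold change (log2 2.42, SE 0.22, edgeR adjusted p = 6.04e-05), and the call held in all 19 alternatives with adjusted p of at most 0.0143.

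Fos was the 1 member of 7 tested AP-1 subunits past the threshold; 6 of 7 were higher in mutants and the median log2 difference was 0.78, against -0.0044 over all genes. Fosb, its close relative, had a log2 difference of 2.37 (SE 0.35) but a wide spread, 60.8 ± 8 CPM in controls and 318 ± 150.2 CPM in mutants (edgeR adjusted p = 0.107). All 6 mutant libraries lay above all 6 controls for Fosb, from 138 to 435 CPM against 21.6 to 80.6 CPM. Jun differed by 1.66, at 232 ± 112.01 against 746 ± 264 CPM, Jund by 0.78, Junb by 0.48, Batf by 0.48 and Fosl2 by -0.62, none past the threshold. Summed over the list, controls P and Q held 707 and 659 CPM, mutant R held 2500.4 CPM and mutant S held 1512 CPM, so the mutants also differed from each other (exact two-sided permutation p 0.333, the smallest possible). By library the sums were 515 to 819 CPM in controls and 1220 to 2557 CPM in mutants.

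Of 27 other immediate-early genes tested, Klf4 alone passed the threshold, 18 were higher in mutants and the median log2 difference was 0.34. At an unadjusted p under 0.05, 7 were higher and 1 lower, against 2.2% and 1.5% of all genes. Klf4 (chromosome 4, 55527143 to 55532466), a zinc finger factor, stood at 8.37 and 5.51 CPM in HSC controls against 35.4 and 34.3 CPM in mutants, and at 6.08 and 3.77 against 78.9 and 44.8 CPM in MPP1. In MPP4 the groups overlapped, with 4 and 44.7 CPM in controls and 36.5 and 46.3 CPM in mutants. Over ID numbers Klf4 rose from 12.1 ± 8.37 to 46.0 ± 5.98 CPM (log2 2.46, SE 0.36, edgeR adjusted p = 0.00505). Without control P the edgeR adjusted p was 0.0814 and without the MPP1 libraries 0.216. Dusp1, a phosphatase of MAP kinases, differed by 1.13 in log2 (edgeR adjusted p = 0.107), Egr1 of 1.66 with 307 ± 220 CPM in mutants, and Ier3 of -0.87, none past the threshold. Klf6, a zinc finger factor related to Klf4, stood at 126 and 96.4 CPM in controls P and Q and 418 and 211 CPM in mutants R and S (log2 1.5, SE 0.42) and was not past the threshold. Cd69, a surface antigen induced early on lymphocyte activation that is in neither list, rose from 23.8 ± 2.38 to 96.2 ± 44.1 CPM (log2 1.95, SE 0.31, edgeR adjusted p = 0.0190). Its highest levels were in MPP4, at 62.4 and 56.9 CPM in controls against 307 and 153 CPM in mutants, and its call was lost without either control. In the same order, the B cell list summed to 640 and 3973 CPM in MPP4 controls and 13163 and 667 CPM in MPP4 mutants. The part of B cell transcripts in the Cd69 values was not tested.

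Hspa1a and Hspa1b, the inducible Hsp70 genes, rose, and the other 12 chaperones tested did not pass. Hspa1a (chromosome 17, 34969190 to 34972156), which overlaps the gene model Gm20481 on the other strand, had no count in any control library. Among mutants it had 10 and 7 counts in HSC, 9 and 0 in MPP1 and 12 and 51 in MPP4, so MPP1 mutant S was at 0 like the controls. With 89 mutant counts it was at least 34.3-fold higher against a floor of 3 counts over the control group (edgeR adjusted p = 0.0007). Without mutant S the edgeR adjusted p was 0.0510, and in limma-trend the adjusted p was 0.192. Hspa1b (chromosome 17, 34956436 to 34959238), the neighbouring copy, stood at 0 and 2.76 CPM in HSC controls against 35.4 and 36.0 CPM in mutants, at 0 and 1.89 against 32.6 and 19.2 CPM in MPP1, and at 4 and 8.13 against 41.7 and 26.1 CPM in MPP4. No mutant library overlapped a control library. The log2 fold change of Hspa1b was 3.93 (SE 0.48, edgeR adjusted p = 0.000998), and in limma-trend its adjusted p was 0.0522. The copies share 0% of 30-base words in their last 500 bases, so 3' reads can tell them apart there. These were the 2 of 14 tested chaperones past the threshold; the median of the list was 0.22, and Hspa8, the constitutive Hsp70, differed by 0.77, Hsp90ab1 by 0.29 and the co-chaperone Bag3 by -0.33. Of other heat-inducible members, Hsph1 stood at 44.2 ± 10.4 CPM in controls and 32.7 ± 16 CPM in mutants (log2 -0.28) and Dnajb1 at 75.6 ± 0.706 and 79.8 ± 4.28 CPM (log2 0.065).

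**Figure D3:**
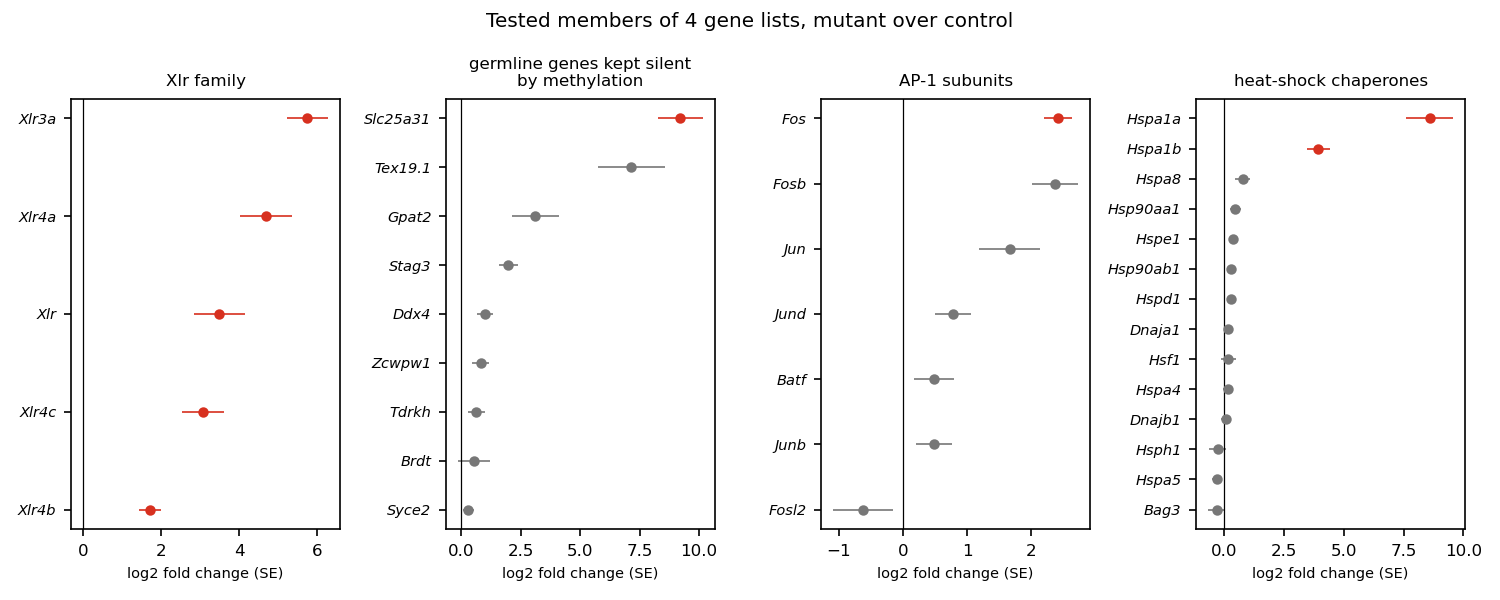
Log2 fold change of mutant over control (x axis, bars show SE) for the tested members of the Xlr family, the germline list, the AP-1 subunits and the heat-shock chaperones, from the sums of 4 ID numbers, with genes past an adjusted p of 0.05 in red. Red are all 5 tested Xlr genes, 1 of 9 germline genes, 1 of 7 AP-1 subunits and 2 of 14 chaperones, and 0.195% of all genes tested passed. The count filter was passed through the mutants only by 4 Xlr genes, 4 germline genes, 0 AP-1 subunits and 2 chaperones. The shares of the lists are therefore not comparable.

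Genes outside these groups rose too. Hnrnpf (chromosome 6, 117900324 to 117925622), an RNA-binding splicing factor, stood at 11.2 and 13.8 CPM in HSC controls against 87.7 and 91.4 CPM in mutants, at 19.8 and 34.0 against 92.5 and 113 CPM in MPP1, and at 18.4 and 8.13 against 54.7 and 152 CPM in MPP4. All mutants lay above all controls. The rise from 17.5 ± 1.54 to 98.6 ± 28.8 CPM was 5.63-fold (log2 2.49, SE 0.28, edgeR adjusted p = 0.000682), and it held in all 19 alternatives with adjusted p of at most 0.0271. Hnrnpf overlaps the gene models 4933440N22Rik and Gm43863 on the other strand. Gm128 (chromosome 3, 95236920 to 95241598), also named Ment, overlaps Bnipl on the same strand, so their reads may be shared; it had 1 control and 63 mutant counts, a ratio of 72.8 with a 95% counting interval from 12.6 to 2919 (edgeR adjusted p = 0.00505). The call was lost without control Q (edgeR adjusted p = 0.0914) and without mutant R (0.0676).

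Slc17a8, a vesicular glutamate transporter, rose over ID numbers from 10.3 ± 5.23 to 45.6 ± 8.70 CPM (log2 2.46, SE 0.34, edgeR adjusted p = 0.00315), but not in MPP4. HSC held 13 and 22 CPM in controls against 64.1 and 72.1 CPM in mutants and MPP1 6.84 and 3.77 against 54.4 and 83.3 CPM, whereas MPP4 held 0 and 16.3 CPM in controls and no count in either mutant. With each library as a unit and population as a term its edgeR adjusted p was 0.279. The coagulation factor gene F5 (log2 1.86, edgeR adjusted p = 0.0344), the antisense gene model Gm42722 (1 control and 52 mutant counts, edgeR adjusted p = 0.0190) and the mitochondrial tRNA gene mt-Tm (log2 1.41, edgeR adjusted p = 0.0480) completed the genes that rose. F5 was lost without control P, control Q or mutant S, Gm42722 without any of the same 3, and mt-Tm in 11 of 19 alternatives. mt-Tm was lower in mutants in HSC, where controls held 12.1 and 8.27 CPM and mutants 10.1 and 3.52 CPM. Gm42722 lies across Pifo and Chil5, so its reads cannot be told from theirs without strand, and F5 and Paqr5 overlap non-coding gene models on the other strand, F5 also the pseudogene Gm16588 on its own.

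Only 2 genes fell past the threshold. Paqr5 (chromosome 9, 61953481 to 62026856), a membrane progestin receptor, stood at 13 and 11 CPM in HSC controls against 3.37 and 3.52 CPM in mutants, at 16 and 15.1 against 5.44 and 2.14 CPM in MPP1, and at 56.0 and 32.5 against 5.21 and 9.25 CPM in MPP4. No library overlapped the other genotype. Its mean fell from 23.9 ± 6.21 to 4.82 ± 0.208 CPM (log2 -2.29, SE 0.41, edgeR adjusted p = 0.0283). The call was lost without control P (edgeR adjusted p = 0.771), control Q (0.0938) or mutant S (0.191), and without the MPP4 libraries (0.663).

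Spc24 (chromosome 9, 21755442 to 21760303) encodes a subunit of the Ndc80 complex, which ties kinetochores to spindle microtubules. It stood at 46.5 and 44.1 CPM in HSC controls against 13.5 and 37.8 CPM in mutants, at 85.9 and 117 against 10.9 and 19.2 CPM in MPP1, and at 122 and 199 against 39.1 and 53 CPM in MPP4. Mutants lay below controls in each population. The mean fell from 102 ± 24.8 to 28.9 ± 11 CPM (log2 -1.66, SE 0.29, edgeR adjusted p = 0.0284). Without control Q the edgeR adjusted p was 0.382, and without only its MPP1 and MPP4 libraries, those with erythroid and neutrophil transcripts, 0.0546. The other subunits of the complex did not pass the test, with log2 differences of 0.47 for Nuf2, 0.02 for Ndc80 and -0.18 for Spc25.

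Of the other G2 and mitosis genes none passed. Of 67 tested, 63 had a positive log2 difference, against 5567 of 11265 over all genes, and the median was 0.40. At an unadjusted p under 0.05 in edgeR's test, 13 of the 67 were higher, against 2.2% of all genes. Among the 13 were Bub1b (0.72, edgeR adjusted p = 0.927), a spindle checkpoint kinase, and Cdc20 (0.59), an activator of the anaphase-promoting complex. The direction was not shared by the populations. In log2 CPM with 0.5 added to each count, the median of the same list was 0.58 in HSC, -0.27 in MPP1 and 0.52 in MPP4. Over all genes the medians were -0.01, 0.01 and -0.02. Summed over the list, controls held 5819 and 7398 CPM and mutants 7549.8 and 8363 CPM, with an exact two-sided permutation p of 0.333, the smallest possible. The S phase genes, 61 tested, had a median of 0.08 and no call.

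**Figure D4:**
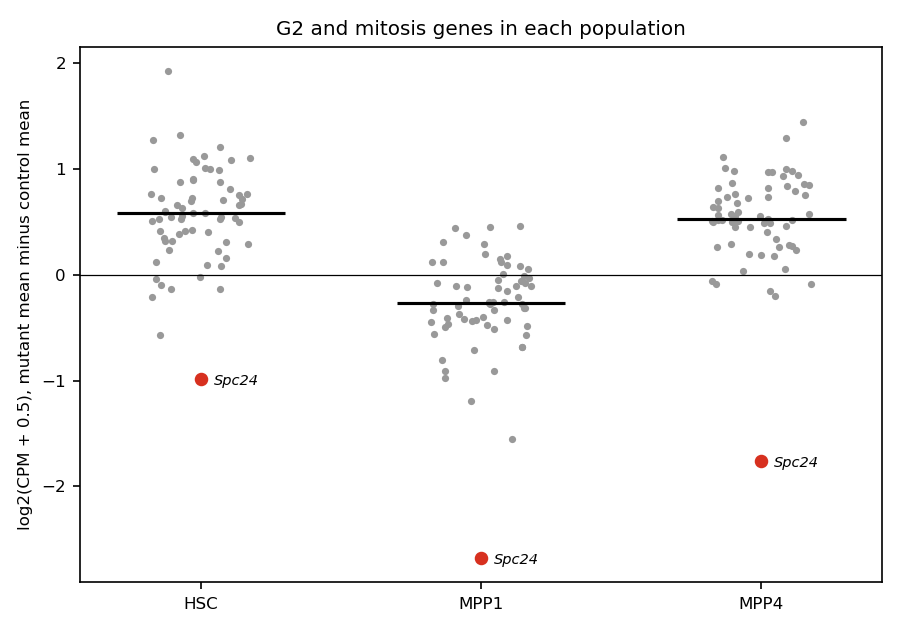
Difference of mutant minus control means in log2 CPM for the G2 and mitosis genes in HSC, MPP1 and MPP4. The value 0.5 was added to each count before scaling, although the axis label reads log2(CPM + 0.5). Each gene is 1 grey point, with the median of the list as a black bar and Spc24 in red. The medians are 0.58, -0.27 and 0.52, and Spc24 is the lowest point in each population.

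No cell identity gene passed an adjusted p of 0.05 in edgeR's test. None of 45 stem cell identity genes (median log2 difference -0.04), 35 lymphoid priming genes (0.00), 31 myeloid progenitor genes (-0.08) or 24 megakaryocyte genes (0.20) was past the threshold. At an unadjusted p under 0.05, 2 stem cell identity genes were higher and 5 lower, 3 and 1 of the lymphoid, 1 and 7 of the myeloid and 2 and 1 of the megakaryocyte genes, against 2.2% and 1.5% of all genes. Summed over the myeloid progenitor list, control P held 4098 CPM, control Q 3662 CPM and mutants R and S 3126 and 3535 CPM. The sum was thus highest in control P, while the high neutrophil sums were in control Q. The part of either control in the 7 lower myeloid genes was not tested. Mecom, a stem cell factor, stood at 362 ± 95.4 CPM in controls and 389.7 ± 69.0 CPM in mutants, Kit, the stem cell factor receptor, at 488 ± 159 and 404 ± 36.1, and Flt3, the receptor that marks MPP4, at 177 ± 30.8 and 216 ± 30.5 CPM. Satb1, a chromatin organiser of lymphoid progenitors, differed by -0.11 in log2 and Il7r, the interleukin-7 receptor, by -0.68, with its reads almost only in MPP4. Mpo, the myeloid granule enzyme, differed by -0.88 in log2 (SE 0.22, edgeR adjusted p = 0.324), at 511 ± 161 CPM in controls and 316 ± 5.73 CPM in mutants. Gata1, the erythroid factor, had a log2 difference of 0.45, from 66 control and 105 mutant counts, 85 of the latter in HSC mutant S. In MPP1 it was lower in mutants, with 2 and 1 counts against 18 and 8 in controls. In MPP4 the mutants had 0 and 0 counts and the controls 0 and 3.

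No member of the other lists passed either. These were the imprinted genes (30 tested, median log2 difference -0.14), heterochromatin silencers (20, 0.07), p53 targets (24, 0.13), apoptosis regulators (18, -0.08), interferon response (44, -0.12), presentation by MHC class I (21, 0.19) and by MHC class II (10, 0.38) and NF-kB signalling (17, -0.05). Among genes of other cells, the 22 erythroid genes tested had a median of -0.39 with a lowest value of -6.98, and all 7 neutrophil genes were lower in mutants, down to -5.52, both with the high sums in control Q. The 8 B cell genes tested had a median of 0.49, beside the high sum in MPP4 mutant R. The part of these cells in the results above was not tested, except that with both affected libraries of control Q left out, 21 of the 22 calls remained and 44 genes passed in all, Spc24 being the call that was lost. The remaining lists were T cells (3 tested, median -0.30), NK and innate lymphoid cells (3, -0.45), dendritic cells (12, 0.18), monocytes and macrophages (10, 0.07), the mast cell, basophil and eosinophil list (3, -0.28), endothelial and stromal cells (4, -0.10) and sex-linked genes (6, -0.25). Of the genes with the smallest unadjusted p among those that were lower, Gm43707 (log2 -3.24, edgeR adjusted p = 0.231), Rpl10-ps3 (-0.86, 0.330) and 2610305D13Rik (-1.39, 0.341) were not past the threshold.

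Taken by population, fewer genes passed. With 6 groups of 2 libraries in 1 edgeR quasi-likelihood fit of 9380 genes, 6 passed in HSC (0.064%), 6 in MPP1 (0.064%) and 4 in MPP4 (0.0426%), and every one of them was among the 22, of which 21 were tested. Fos, Xlr3a and Slc25a31 passed in each of the 3 populations. The populations come from the same 4 ID numbers and share 1 estimate of the spread, so these passes are not independent of each other. Fos had log2 fold changes of 2.24 (SE 0.29) in HSC, 2.78 (SE 0.30) in MPP1 and 2.09 (SE 0.30) in MPP4. Hspa1b and Xlr4b also passed in HSC, Hnrnpf in HSC and MPP4, and Hspa1b, 4930447C04Rik and Spc24, the last lower in mutants, in MPP1. Passing in 1 population and not in another does not show a difference between them. The difference itself, tested in edgeR with the ID number as a block, was past the threshold in 1 of 9380 genes (0.0107%), S100a8, and in none of the 21 genes of the pooled result. S100a8, a neutrophil granule protein gene, had an adjusted p of 0.000167; its 1059 counts in MPP1 control Q and 397 in MPP4 control Q stood against 1 to 13 in each of the other 10 libraries, and these are the libraries with the high neutrophil and erythroid sums. Taken pair by pair, S100a8 alone passed between MPP1 and HSC (0.0107%), S100a8 and Serpina3g between MPP4 and HSC (0.0213%), and no gene between MPP4 and MPP1. Serpina3g, a serine protease inhibitor gene, had a log2 effect lower by 2.09 in MPP4 than in HSC (edgeR adjusted p = 0.0263, but 0.113 over all 3 populations), with 313 and 53 control and 220 and 460 mutant counts in HSC, and 93 and 9 against 12 and 24 in MPP4. For Slc17a8 and Spc24 the adjusted p of the difference was 0.856 and for mt-Tm 0.813.

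**Figure D5:**
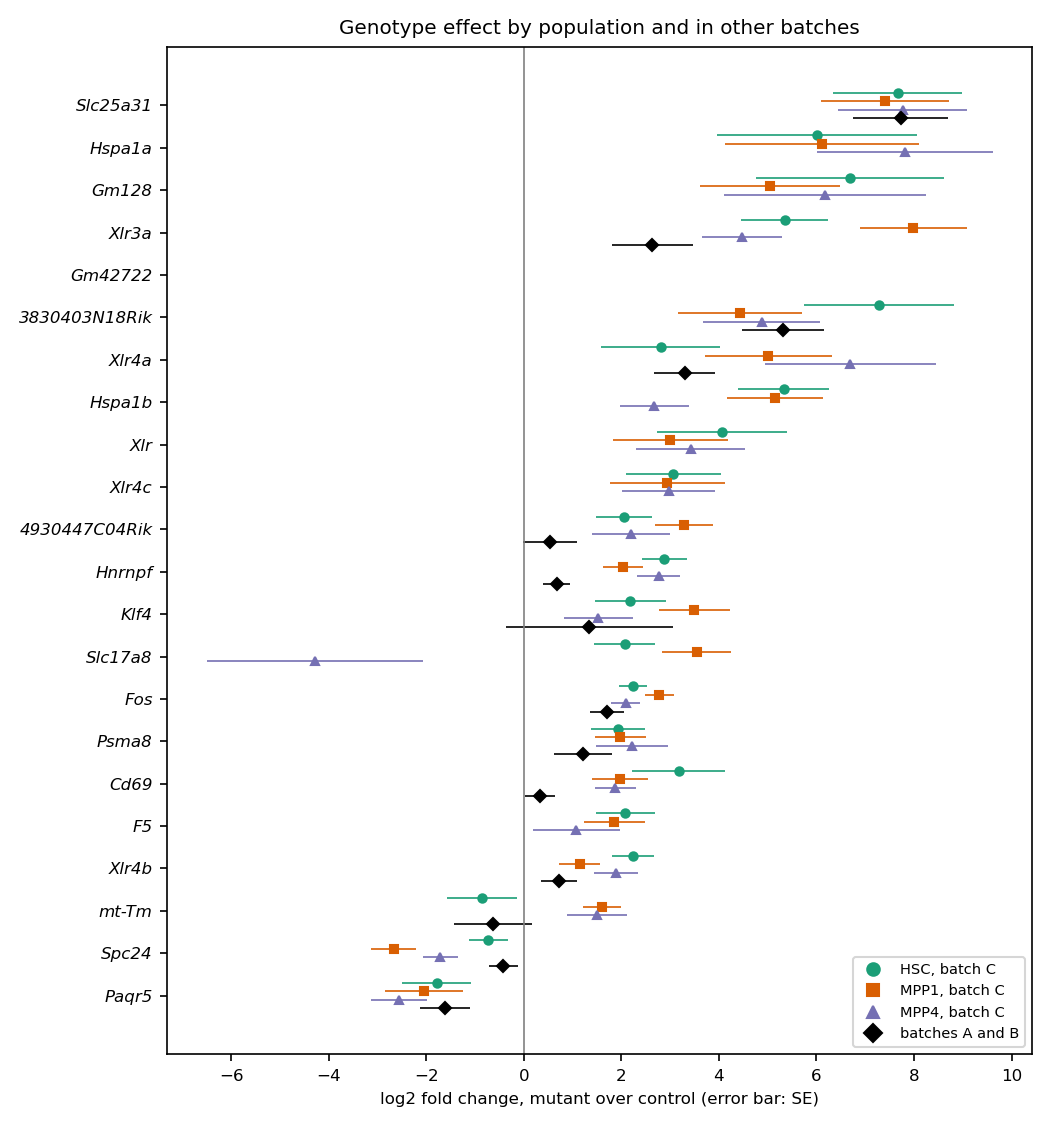
Log2 fold change of mutant over control with its SE (x axis) for the 22 genes in HSC, MPP1 and MPP4 of batch C and in the libraries of batches A and B, where tested. Slc25a31 is to the right of 0 in all 4 estimates, the MPP4 estimate of Slc17a8 is to the left of 0, and mt-Tm is left of 0 in HSC and in batches A and B.

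The 6 libraries of batches A and B, HSC and MPP4 of 4 other ID numbers, were not used for the pooled result. They are 3 controls and 3 mutants in 3 strata of batch and population. Their genotype effect was fitted with single libraries as units, the stratum as a term and no MPP1, unlike the pooled sums. The sizes of the effects are therefore not directly comparable. Of the 4 ID numbers, 2 give 2 libraries each, so p-values there are too small. In edgeR's test 8 of 9581 genes passed (0.0835%), 7 of them higher in mutants. Of the 22 genes, 14 were tested there, 13 had the same sign, and 1 passed: Slc25a31, with 0 counts in controls and 42, 25 and 6 counts in the mutants (log2 7.72, SE 0.97, edgeR adjusted p = 0.0401). These libraries also stood apart in other cells' transcripts. Neutrophil genes summed to 2117 CPM in the HSC mutant, 319.7 CPM in the MPP4 mutant of batch A and 44492 CPM in that of batch B, against 169 to 259 CPM in controls, and S100a8 stood at 464, 19.9 and 5987 CPM against 1.32 to 3.35 CPM, higher in mutants where in batch C control Q was high. Erythroid genes summed to 17452 CPM in the HSC mutant and 247299 CPM in the MPP4 mutant of batch B, against 793 to 2428 CPM in the other 4 libraries, and B cell genes to 39448 CPM in the HSC control, against 198 to 1041 CPM. Their part in the values was not tested beyond leaving libraries out. Without HSC of batch A, 48 genes passed, the 8 among them, Slc25a31 having an edgeR adjusted p of 0.00033. Without MPP4 of batch B only 1 ID number per genotype remains. That fit holds no spread between ID numbers, so its calls are not given. At an unadjusted p under 0.05 in edgeR's test with the same sign there were 7 of the 14, Paqr5, lower in mutants, among them. Of all 9581 genes, 957 passed that level in either direction, and 4.93% passed it as higher in mutants. Among all genes, 50.2% had a positive log2 difference.

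Fos in batches A and B stood at 208 CPM in the HSC control against 436 CPM in the mutant, at 86.2 against 224 CPM in MPP4 of batch A and at 101 against 650.3 CPM in MPP4 of batch B (log2 1.71, SE 0.35, edgeR adjusted p = 0.137). 3830403N18Rik had 3 control and 80 mutant counts (log2 5.32, edgeR adjusted p = 0.0531). Xlr3a had 1, 0 and 25 counts in the controls and 21, 14 and 11 in the mutants; on the CPM scale it was higher in the mutant of every stratum, at 18.4 against 1.67, 17.4 against 0 and 24.5 against 11 CPM. Hspa1a and Hspa1b were not tested there, with 8 and 12 control counts against 76 and 91 mutant counts. Hnrnpf differed by 0.67 (SE 0.28) against 2.49 in batch C, with control levels of 78.7 to 142 CPM against 8.13 to 34.0 CPM in batch C. Paqr5 was lower in the mutant of every stratum (log2 -1.62, SE 0.51, edgeR adjusted p = 0.355), while Spc24 differed by -0.42 (SE 0.30) and was higher in the HSC mutant. mt-Tm had the opposite sign, with a log2 difference of -0.63. Stag3, which missed the threshold in batch C, passed in these libraries (log2 2.51, SE 0.39, edgeR adjusted p = 0.0407), as did the immediate-early gene Egr1 (log2 2.07, SE 0.30, edgeR adjusted p = 0.0401). The others were Ube2c of the G2 and mitosis list (log2 1.99), Cryab (4.19), Tnnt1 (4.32), n-R5-8s1 (3.11) and, lower in mutants, 5830444F18Rik (-2.38). Summed over the G2 and mitosis list, the HSC mutant held 6099 CPM against 3468 CPM in the control. In MPP4 the mutants held 12496 against 6800 CPM in batch A and 12129 against 7321 CPM in batch B. Without the MPP4 libraries of batch A, 26 genes passed, none of them among the 8, and Slc25a31 was not tested.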

How the data were processed

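Messenger RNA was measured by CEL-Seq2 in 12 libraries of 4 ID numbers, per the labels' protocols. The deposited tables hold estimated counts for 29717 gene symbols. All 1557 values from 1000 up and below the highest (100%, all 18 libraries) lie on the grid of a correction for collisions among 4096 molecular tags, and the highest possible value, 36909, was reached 6 times in batch C and is a lower limit. The build mm10, R 3.4.0 and DESeq2 are given in the submitters' processing notes; aligner, counter, annotation and strand use were not given in the sources used here. Result tables deposited by the authors were not used, since they compare genotypes within a population. Libraries of a group differed by more than sampling noise: their chi-square per degree of freedom was 2.96 to 42.3.

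Counts, already whole, were summed over HSC, MPP1 and MPP4 per ID number, with an offset per gene for how much of an ID number's TMM-scaled counts each population gave. They were tested with edgeR 4.0.16 in R 4.3.3: default filter by genotype with a minimum count of 10, robust quasi-likelihood fit, Benjamini-Hochberg adjustment over all genes, threshold 0.05. CPM use TMM-scaled totals; mean ± SD is over 2 ID numbers, each the mean of 3 populations. Populations, their difference and batches A and B had fits of their own. Controls at 0 were set to a floor of 3 counts over the group, and ratios on 1 to 3 counts have a 95% interval; both cover counting error only. limma 3.58.1 and DESeq2 1.42.0 served as alternatives, and the scripts were tested on simulated data. Promoters are from RefSeq (GRCm38.p6), gene positions from GENCODE vM21.

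Named are Dnmt1, Uhrf1, Fos, Flt3, Il7r, Satb1, Kit, Mpo, Gata1 and Mecom, up to 12 genes per direction past the threshold with 1 sign in all populations, up to 3 members past it per list (of 30 lists), genes filling a direction up to 6, and up to 5 genes for the difference between populations. Slc17a8, Cd69, Gm42722, Xlr4c, Psma8, F5, Xlr, mt-Tm and the other list members given in the text were named after their values were seen. Members, lists and tests were chosen with earlier results of these data known.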

Additional observations from a re-analysis of the deposited data

Results flagged for a closer look

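Within each genotype, 130 sets of 6 library values were checked for a library far from the other 5 by Dixon's criterion, which marks about 1 in 20 sets by chance. MPP4 control Q was far above the other controls in 7 of them: Xlr3a, 3830403N18Rik and Gm42722 at 4.06 CPM each, which is 1 count at that library's depth, Klf4 at 44.7 CPM, the summed germline list at 410.3 CPM, the summed B cell list at 3973 CPM and the summed endothelial and stromal list at 313 CPM. HSC control Q stood out for Xlr4a at 2.76 CPM and MPP1 control P for Gm128 at 0.76 CPM, again 1 count each. Among mutants, MPP1 mutant R was low for Dnmt1 at 229 CPM and high for Klf4 at 78.9 CPM, MPP4 mutant R was high for the summed B cell list at 13163 CPM, and MPP4 mutant S for the summed apoptosis regulators at 1385 CPM. The genotype effect on S100a8 differed between populations (edgeR adjusted p = 0.000167), with the high values in the MPP1 and MPP4 libraries of control Q. That on Serpina3g differed between MPP4 and HSC (edgeR adjusted p = 0.0263).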

How the results depend on the processing

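All of the 22 genes that an alternative tested kept their sign in each of 19 alternatives, 2 of which (control Q without its MPP1 and MPP4 libraries, and sums with the Xist state as a term) were chosen after seeing the data, as were those for batches A and B. The 22 calls became 48 with each library as a unit (20 of the 22 among them), 35 with limma-voom and the ID number as a random block (21), 10 with limma-trend on mean log2 CPM (9), 72 without a filter on low counts (22, with the median of all genes at -0.10), 7 with a minimum count of 50 (7 of 13 tested), 70 with libraries as units and the Xist state as a term (20) and 44 without the affected libraries of control Q (21). The other alternatives gave 18 to 30 calls, DESeq2 22 with 17 shared. Leaving out 1 ID number gave 11 to 76 calls, 48 without control P (10 shared), 11 without control Q (9), 76 without mutant R (21) and 32 without mutant S (13); the lone ID number is then assumed to vary like the others. Replicate numbers are shared by control and mutant libraries, but the deviations of same-numbered libraries correlated at 0.045 in HSC, 0.166 in MPP1 and -0.081 in MPP4, so they share only a number; with that replicate block 59 genes passed over all, 10 in HSC, 19 in MPP1 and 29 in MPP4. By population (HSC, MPP1, MPP4), without a filter 24, 24 and 44 passed, in the population's own 4 libraries 18, 18 and 11, with DESeq2 3, 7 and 3, and leaving out 1 ID number 3 to 8, 3 to 25 and 7 to 77. For the difference between populations, 0 passed without the block, 2 without a filter and 0 to 103 leaving out 1 ID number (103 without control P, 18 without control Q). In batches A and B, 158 passed without a filter, 48 without HSC of batch A, 26 without MPP4 of batch A and 913 without MPP4 of batch B. Reversals of sign concerned genes without a call: without 1 ID number, Dnmt1 ran from -0.13 to 0.036, Satb1 from -0.23 to 0.053, Kit from -0.57 to 0.094, Gata1 from -0.26 to 0.90, Mecom from -0.18 to 0.37 and S100a8 from -7.07 to 2.01. Dnmt1 became 0.013 without MPP1, 0.079 without MPP4 and 0.019 without the affected libraries of control Q, and Uhrf1 0.00034 without MPP4. Flt3 became -0.049 with libraries as units, -0.22 with limma-trend, -0.0053 with the replicate block and -0.41 without MPP4. Satb1 became 0.0018 with libraries as units, 0.030 with limma-trend, 0.12 with plain sums and 0.12 without MPP4. Gata1 became -0.86 with limma-trend and -0.028 with the Xist term, and Mecom -0.16 without MPP1 and -0.13 without the affected libraries of control Q. For these the cause was not tested. Depth limits the low genes: at 354642 counts, 1 count is about 2.8 CPM.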
